A study of Mus musculus with 9 samples.

Results

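The regions described here are 846 stretches of open chromatin that ranked among the strongest in multipotent progenitors (MPPs) knocked out for RXR alpha and RXR beta, the retinoid X receptors (KO), and outside the strongest in wild-type (WT) MPPs. Each of the 9 deposited peak lists, 1 per ATAC-seq library, was ranked by the −log10 of the q-value and then by fold enrichment, and its 22690 strongest peaks formed the top set of that library, a number set by the shortest list. Top-set peaks sharing 1 bp or more were merged into 42133 regions, and the 33949 that were in the top sets of 2 or more libraries were analysed. A region was a member if both MPP KO libraries and neither MPP WT library had a top-set peak in it, which held for 846 of the 33949 regions (2.49%). The same rule turned round gave 889 regions (2.62%), called the regions ranked down. The members are thus chosen on MPP ranks, and their MPP values are given as a description with no test.

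The 4 groups were MPPs of genotype RXRa/RXRb-KO (2 libraries), wild-type MPPs (2), long-term haematopoietic stem cells (LT-HSCs) of genotype RXRa/RXRb-KO (3) and wild-type LT-HSCs (2), all from the bone marrow of C57BL/6 mice. Lineage-negative cells of pooled animals were enriched and then sorted, so a library averages over several mice. The sources used here do not give how and in which cells the receptors were deleted, nor the age and sex of the mice. Libraries are called by the numbers in their labels, and nothing states that same-group libraries came from separate pools, so the spread between them may be technical.

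ATAC-seq uses the Tn5 transposase to insert adapters into DNA that is not covered by nucleosomes, so a peak marks a promoter, an enhancer or another site of open chromatin. RXRs are nuclear receptors that pair with retinoic acid, vitamin D, liver X, PPAR and NR4A receptors and bind DNA with them. LT-HSCs are mostly quiescent cells that renew the blood for life, and MPPs descend from them and divide more often. As stem cells become MPPs, sites at stem cell and megakaryocyte genes are known to close while sites of the myeloid and lymphoid programmes open.

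Most members lay away from promoters, and 83 of them overlapped at least 1 of the 32851 promoter windows of the RefSeq table (GRCm38.p6, the assembly of mm10), each running from 250 bases before to 50 bases after a gene start. The table lacks some genes. Promoter sequences of 4 genes are shown because their windows overlap members that the results below return to. Gp1ba and Pf4 encode the platelet receptor subunit glycoprotein Ib alpha and the chemokine platelet factor 4. Cul9 encodes a cullin protein of ubiquitin ligases, and Acadvl the very long chain acyl-CoA dehydrogenase of mitochondrial fat oxidation. The windows are chr11:70638872-70639171 (plus strand) for Gp1ba, chr5:90772185-90772484 (plus) for Pf4, chr17:46546339-46546638 (minus) for Cul9 and chr11:70015379-70015678 (minus) for Acadvl. The first pair lies wholly inside its member, and the last pair shares 252 and 231 of 300 bases with it. Sequences run 5′ to 3′, and capitals mark matches to the motifs listed after them on either strand.
Gp1ba promoter: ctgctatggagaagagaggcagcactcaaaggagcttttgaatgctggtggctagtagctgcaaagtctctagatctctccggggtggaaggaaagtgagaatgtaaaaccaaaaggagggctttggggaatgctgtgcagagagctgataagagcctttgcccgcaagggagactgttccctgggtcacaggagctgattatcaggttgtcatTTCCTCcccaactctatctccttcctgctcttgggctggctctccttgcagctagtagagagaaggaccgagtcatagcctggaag
Pf4 promoter: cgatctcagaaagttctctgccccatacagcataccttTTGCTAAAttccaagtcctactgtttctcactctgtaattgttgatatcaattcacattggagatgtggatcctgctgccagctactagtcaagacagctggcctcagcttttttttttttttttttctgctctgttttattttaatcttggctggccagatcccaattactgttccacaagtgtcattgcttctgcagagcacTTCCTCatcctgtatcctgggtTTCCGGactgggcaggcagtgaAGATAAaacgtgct
Cul9 promoter: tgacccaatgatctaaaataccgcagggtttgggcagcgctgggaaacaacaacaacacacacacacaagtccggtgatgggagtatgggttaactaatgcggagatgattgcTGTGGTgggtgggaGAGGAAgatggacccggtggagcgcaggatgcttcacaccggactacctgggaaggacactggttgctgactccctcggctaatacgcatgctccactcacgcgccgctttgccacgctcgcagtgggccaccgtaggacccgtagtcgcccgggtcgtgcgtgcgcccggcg
Acadvl promoter: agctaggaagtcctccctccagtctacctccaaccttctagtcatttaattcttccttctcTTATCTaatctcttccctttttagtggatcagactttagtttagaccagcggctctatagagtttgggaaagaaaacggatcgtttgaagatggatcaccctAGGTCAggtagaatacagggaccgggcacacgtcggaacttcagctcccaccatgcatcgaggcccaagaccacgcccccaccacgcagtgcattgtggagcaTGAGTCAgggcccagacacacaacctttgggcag

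The Gp1ba window held 1 match to the PU.1 core GAGGAA. That of Pf4 held 1 match each to the GATA motif AGATAA, the ETS motif CCGGAA, the PU.1 core and the CEBP motif TTGCNNAA. In the Cul9 window there was 1 match each to the RUNX motif TGTGGT and the PU.1 core. The Acadvl window held 1 match each to AGGTCA, the element bound by each partner of a nuclear receptor pair, the GATA motif and the AP-1 motif TGANTCA. Its GATA match lies in the part of the window outside the member. Over the 92 windows that touch a member, AGGTCA was found in 12 of 92 (13%), against 5340 of 32851 windows in the table (16.3%). None of the 92 held AGGTCA repeated directly with a spacing of 1, 4 or 5 bases, repeats that were also rare in the table (13, 5 and 3 windows). The PU.1 core was found in 33.7% of the 92 windows against 28.3% of the table, CEBP in 12% against 10.8%, GATA in 10.9% against 11.2%, ETS in 15.2% against 14.9% and RUNX in 15.2% against 16.8%. The AP-1 motif was in 8.70% against 7.81%, the E-box CACGTG in 7.61% against 7.15% and the IRF motif in 4.35% against 3.44%. These shares have no test, and a match describes the letters and not a binding site. The PU.1 and ETS motifs share the letters GGAA, and each repeat contains AGGTCA.

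Members ranked mostly in the later part of the MPP KO top sets and mostly a little below the top set in MPP WT lists. Their ranks ran from 8958 to 22645 with a median of 19374 in MPP KO 1, and from 9301 to 22687 with a median of 19391 in MPP KO 2. The WT ranks ran from 22692 to 66379 with a median of 27046 in MPP WT 1, and from 22692 to 61715 with a median of 26970 in MPP WT 2. Every member had a peak in each of the 4 lists, so the members differ in rank and a rank gives only the place of a peak within its own list. The median fold enrichment over the members was 15.9 and 17.0 in MPP KO 1 and KO 2, and 13.2 and 12.5 in MPP WT 1 and WT 2. The −log10 q of the last peak inside the top set was 42.8 in MPP KO 1, 51.4 in MPP KO 2, 55.1 in MPP WT 1 and 48.8 in MPP WT 2, and the first peak outside it had the same value to that precision. The rank gap, defined as the better WT rank minus the worse KO rank, had a median of 5578 places and ran from 167 to 38105.

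**Figure D1:**
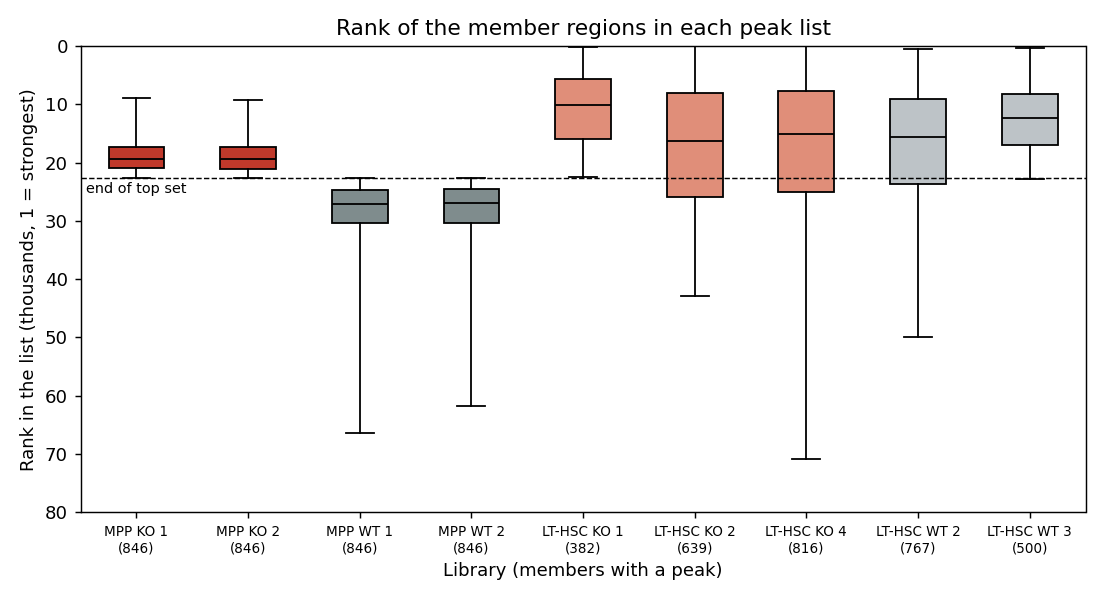
Rank of the 846 member regions in each peak list, in units of 1000 places with 1 the strongest (vertical axis), by library (horizontal axis, with the number of members that have a peak there); boxes span the quartiles with the median as a line, and whiskers reach the lowest and highest rank. The dashed line is the end of the top set at rank 22690, which separates MPP KO from MPP WT by construction, while the LT-HSC libraries were not used in the choice and reach ranks above all MPP ranks.

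The plot of ranks by library shows members late in the MPP KO top sets and spread over the whole range of the LT-HSC top sets. As a share of the list, the median member stood at 24.8% and 22.5% of the MPP KO lists and at 31.6% and 33.5% of the MPP WT lists. Members with an LT-HSC peak stood at 44.8%, 37.9% and 21.2% of the lists of LT-HSC KO 1, 2 and 4, against 31.3% and 54.3% of those of LT-HSC WT 2 and 3. Ranked among the strongest 22690 peaks were 382 members in LT-HSC KO 1 (45.2%), 442 in KO 2 (52.2%) and 578 in KO 4 (68.3%), against 554 in LT-HSC WT 2 (65.5%) and 498 in LT-HSC WT 3 (58.9%). Over all analysed regions the shares were 58.4%, 60.5% and 63.9% in LT-HSC KO 1, 2 and 4, and 64.4% and 62.0% in LT-HSC WT 2 and 3. Members were thus above all analysed regions in LT-HSC KO 4 and WT 2 and below them in KO 1, KO 2 and WT 3. The median rank of members that had a peak was 10154, 16329 and 15162 in LT-HSC KO 1, 2 and 4, against 15679 and 12413 in LT-HSC WT 2 and 3. In the full lists, which differ in length, 45.2%, 75.5% and 96.5% of the members had a peak in LT-HSC KO 1, 2 and 4, against 90.7% and 59.1% in LT-HSC WT 2 and 3. The lists of LT-HSC KO 1 and WT 3 hold only 22690 and 22878 peaks, so their top sets are almost the whole lists and reach down to a −log10 q of 1.37 and 3.17, against 33.0 in LT-HSC KO 4. Some members had a better rank in an LT-HSC library than in both MPP KO libraries. This held for 37.1%, 41.8% and 58.3% of the 846 in LT-HSC KO 1, 2 and 4, against 53.7% and 47.4% in LT-HSC WT 2 and 3. A better rank is a place in a list of another length and need not be a higher signal. The median fold enrichment of members with a peak was 6.90, 8.55 and 13.1 in LT-HSC KO 1, 2 and 4, against 9.92 and 6.44 in LT-HSC WT 2 and 3. The part of list length and library quality in these shares was not tested.

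The 846 members divided widely by LT-HSC holding. Of the 5 LT-HSC top sets, 253 members were in all, 131 each in 4 and in 3, 100 in 2, 72 in 1 and 159 in none. In all 5 were 29.9% of the members and 35.7% of all analysed regions, and in none 18.8% and 15.0%. Holding by 3 or more LT-HSC top sets applied to 60.9% of the members (95% Wilson interval 57.5% to 64.1%), 73.4% of the 18777 regions in all 4 MPP top sets (72.8% to 74.1%) and 39.7% of the 4610 other regions in 1 to 3 MPP top sets (38.3% to 41.1%). Over all 33949 analysed regions it applied to 61.6%, close to the share of the members. That base includes regions with no MPP top-set peak, which were analysed through LT-HSC top sets alone. The set of other regions was chosen after its values were seen. Among the 889 regions ranked down 725 were in no LT-HSC top set and 7 in all. These intervals cover counting error over regions only, and regions of 1 library are not independent samples.

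**Figure D2:**
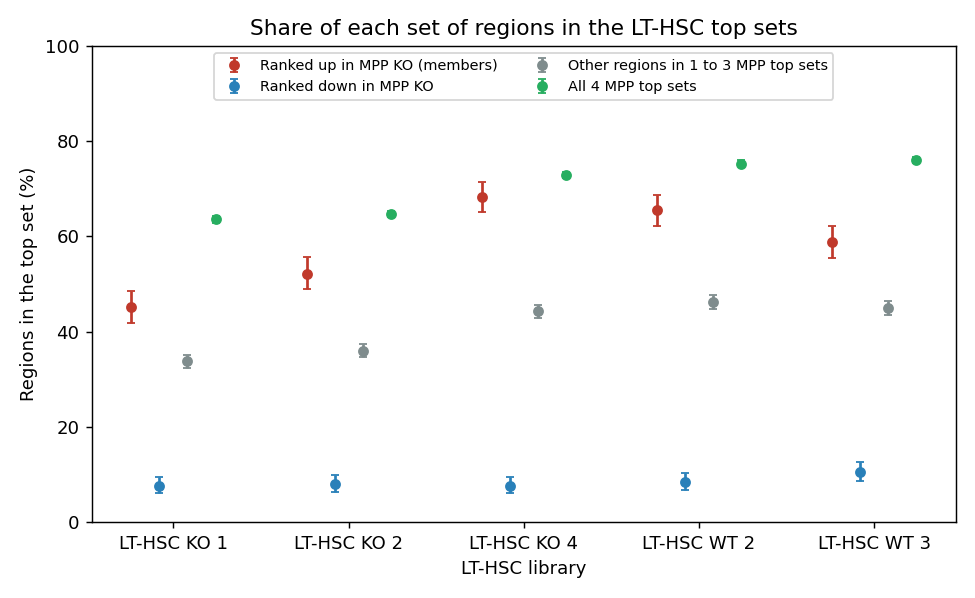
Percent of each set of regions with a peak in the top set (vertical axis) of each of the 5 LT-HSC libraries (horizontal axis), with 95% Wilson intervals that cover counting error only. The members lie between 45.2% and 68.3%, above the regions ranked down and the other regions in 1 to 3 MPP top sets and below the regions in all 4 MPP top sets in each library.

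The order of the 4 sets was the same in each of the 5 LT-HSC libraries, as the plot of shares by LT-HSC library shows. In LT-HSC KO 4 the share of members (68.3%) came closest to that of regions strong in all MPPs (73.0%), and in LT-HSC KO 1 it was farthest below (45.2% against 63.6%). Members were in fewer LT-HSC KO than LT-HSC WT top sets on average, with 55.2% ± 11.9 in LT-HSC KO (SD, n = 3) and 62.2% ± 4.68 in LT-HSC WT (SD, n = 2). The ranges of the 2 genotypes overlap, and the difference of −6.93 percentage points (KO minus WT) is smaller than the spread between the KO libraries. An exact permutation test of 3 against 2 libraries cannot go below p = 0.1. The same difference was −7.60 in the other regions of 1 to 3 MPP top sets, −8.58 in regions of all 4 MPP top sets, −1.69 in regions ranked down and −2.24 over all analysed regions. For the members it moved to −1.89 when LT-HSC KO 1 was left out, to −13.4 when KO 4 was and to −3.62 when WT 2 of the LT-HSCs was.

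Members with a wider gap in MPPs were held by more LT-HSC libraries. In 4 equal groups ordered by rank gap, holding by 3 or more LT-HSC top sets was 42.0% (35.5% to 48.7%) in the group with the narrowest gaps, then 52.6% and 64.0%, and 84.9% (79.5% to 89.1%) in the group with the widest. The same order held in each library, with 29.2%, 41.2%, 44.5% and 65.6% in LT-HSC KO 1, 36.8%, 47.9%, 52.6% and 71.7% in LT-HSC KO 2 and 50.0%, 62.1%, 71.6% and 89.6% in LT-HSC KO 4. It was 49.1%, 57.3%, 70.1% and 85.4% in LT-HSC WT 2 and 44.3%, 47.9%, 61.1% and 82.1% in LT-HSC WT 3. Of the 144 members with a gap of at least 10000 places, 125 (86.8%) were in 3 or more LT-HSC top sets. Regions ranked down went the other way, with 15.7%, 7.66%, 3.60% and 2.25% from the narrowest to the widest gap. With peaks ranked by fold enrichment first, the group with the narrowest gaps had 48.2% and that with the widest 64.7%, a smaller contrast. These are descriptions over regions that share libraries, with no test.

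**Figure D3:**
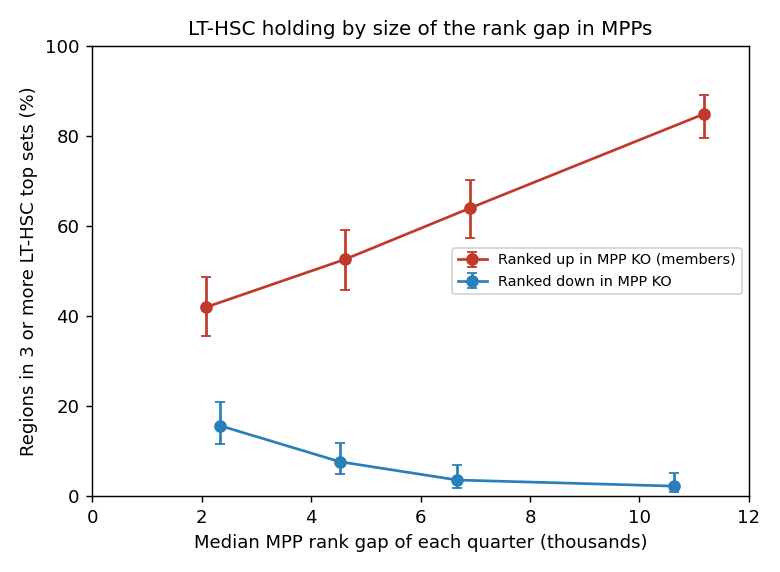
Percent of regions in 3 or more of the 5 LT-HSC top sets (vertical axis) against the median MPP rank gap, in units of 1000 places, of each of 4 equal groups of the regions (horizontal axis); bars are 95% Wilson intervals covering counting error only. Members go from 42.0% to 84.9% from the narrowest to the widest gap, and regions ranked down from 15.7% to 2.25%.

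The rank in MPP KO moved with the gap. The median of the mean MPP KO rank was 20580, 19472, 18627 and 17713 from the narrowest to the widest gaps. When members were also split at the median of their mean MPP KO rank, the share in 3 or more LT-HSC top sets was 78.7% for gaps above the median and 60.3% for the others among the stronger members, and 66.4% and 40.4% among the weaker. The split did not match MPP KO ranks: the median of the mean MPP KO rank was 16979 for wide and 18406 for narrow gaps among the stronger members, and 20559 and 20718 among the weaker. Position also moved with the gap, since 37, 38, 26 and 15 members of the 4 groups lay at a gene end.

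Several of the members with the widest gaps had high ranks in LT-HSC lists. The widest, 38105 places, belongs to a region 14.2 kb outside Olfm3, which encodes an olfactomedin family protein (chr3:114889712-114890142). It ranked 13994 and 20725 in MPP KO 1 and 2, against 66379 and 58830 in MPP WT 1 and 2. In LT-HSCs it ranked 1077, 1251 and 10655 in KO 1, 2 and 4, against 44930 in WT 2 and no peak in WT 3, and its fold enrichment there was 18.2, 22.6 and 21.6 in KO, against 4.99 in WT 2. The KO libraries were thus the higher in both cell types at this region. A region inside Iqgap2, which encodes a scaffold protein of the cytoskeleton (chr13:95657068-95657658), ranked 21292 and 18381 in MPP KO and 55497 and 46001 in MPP WT. Its LT-HSC ranks were 15920, 11137 and 4379 in KO, against 6461 and 8495 in WT, and these groups overlap. At Pkdcc, which encodes a secreted kinase, a region 53.4 kb outside the gene ranked 19264 and 17744 in MPP KO and 50170 and 43237 in MPP WT. It was among the strongest 5000 peaks of every LT-HSC library, at 4702, 4133 and 1282 in KO and 3162 and 4034 in WT. The inside of Mcub, a gene for a subunit of the mitochondrial calcium uniporter (18517 and 19588 in MPP KO, 52754 and 48849 in MPP WT), ranked 7228, 5202 and 17281 in LT-HSC KO and 22823 and 22654 in LT-HSC WT. By fold enrichment the LT-HSC genotypes overlapped there, with 8.70, 14.1 and 13.7 in KO and 8.80 and 3.72 in WT. The other 4 of the 8 widest gaps were near Sec14l2, near Dohh, which encodes deoxyhypusine hydroxylase, and at 2 places more than 100 kb from any gene end, with gaps of 21034 to 23528. Each of these 4 was in 4 or 5 LT-HSC top sets.

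By position, members were mostly distal. Within 1 kb of a gene end lay 116 members (13.7%, 11.6% to 16.2%), close to the 13.4% of the regions ranked down and below the 21.0% of the other regions in 1 to 3 MPP top sets, the 43.1% of regions in all 4 MPP top sets and the 31% of all analysed regions. The midpoint was inside a gene for 454 members (53.7%), outside but within 100 kb of one for 330, and farther away for 62 (7.33%). Their median length was 492.5 bp, against 437 bp for regions ranked down and 604 bp for regions of all 4 MPP top sets. LT-HSC holding differed little by position. It was 65.5% at gene ends (56.5% to 73.5%), 62.0% inside genes away from their ends, 59.1% outside genes and 53.2% beyond 100 kb (41.0% to 65.1%). Across chromosomes 1 to 19, members made up 1.92% (chromosome 16) to 3.32% (chromosome 12) of analysed regions.

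Members were spread over many genes. Another member lay within 100 kb of 125 members (14.8%), and a region ranked down within that distance of 134 (15.8%). Among the regions ranked down, 173 of 889 (19.5%) had another of them within 100 kb. The spacing was not tested. A region in all 4 MPP top sets lay within 100 kb of 749 (88.5%). The 784 members with a gene were assigned to 744 genes, of which 706 had 1 member, 37 had 2 and Gse1 had 4. Of these 744 genes 78 also had a region ranked down, which is 10.5% of them and 9.99% of the 781 genes with regions ranked down. All analysed regions together were assigned to 13532 genes, of which these 781 are a part. Whether the overlap differs from that of other genes was not tested.

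The 4 members inside Gse1 lay on chromosome 8. The first by MPP KO rank (chr8:120486971-120487627) ranked 16128 and 15298 in MPP KO and 25557 and 27448 in MPP WT, and the other 3 ranked 16590 to 21980 in MPP KO and 23000 to 33062 in MPP WT. None had a peak in LT-HSC KO 1, and 3 of the 4 were in 3 or more LT-HSC top sets. Creb5, which encodes a transcription factor of the CREB family, had 2 members 7.58 and 13 kb outside it, in 4 and 5 LT-HSC top sets. Prkca, which encodes protein kinase C alpha, and Fars2, which encodes a mitochondrial tRNA synthetase, each had 1 member in all 5 LT-HSC top sets, and their second members were in 3 and 2. Both members of Oit3, of Gypc, which encodes the red cell membrane protein glycophorin C, and of Ctif were in all 5.

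Members in all 5 LT-HSC top sets include some with very high LT-HSC ranks. A region inside Rhof, which encodes a small GTPase (chr5:123118776-123119320), ranked 9560 and 9490 in MPP KO and 23750 and 23598 in MPP WT. In LT-HSCs it ranked 3735, 5629 and 58 in KO and 493 and 440 in WT. At the end of Aars2, which encodes the mitochondrial alanyl-tRNA synthetase, the ranks were 9712 and 10559 in MPP KO, 24531 and 24671 in MPP WT, 14997, 6832 and 436 in LT-HSC KO and 1372 and 2269 in LT-HSC WT. A region 5.17 kb outside Spesp1 ranked 11782 and 10201 in MPP KO and 24215 and 23288 in MPP WT, and 722 to 6960 over the 5 LT-HSC libraries. By fold enrichment, Rhof had 19.5 and 19.3 in MPP KO and 13.6 and 12.7 in MPP WT, and 10.1, 14.3 and 26.5 in LT-HSC KO and 22.1 and 20.5 in LT-HSC WT. At Rhof the LT-HSC libraries thus lay on both sides of the MPP ones. Near Pkd1l2, the fourth of the gene-end members with the best MPP KO ranks, the region was in 4 LT-HSC top sets.

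At the other extreme, 25 members (2.96%) had no peak in any full LT-HSC list, and 59 had none when LT-HSC KO 4, the longest of these lists, was left out. Of all 33949 analysed regions 6.17% had no peak in any full LT-HSC list. Presence of a peak in the 4 MPP against the 5 LT-HSC lists was tested for each region by Fisher's exact test with Benjamini-Hochberg adjustment over the 52020 full-list regions held by 3 to 6 libraries. It called 16604 regions (31.9%) for MPPs and 230 (0.442%) for LT-HSCs. When all regions were tested it called 0 in both directions, with 30332 and 1177 at unadjusted p under 0.05. The 25 members, held in 4 of 4 MPP and 0 of 5 LT-HSC lists, are among the called regions, but the rule fixed their MPP side, so for them this is a description with no p. Only 164 of the 846 members lay in tested regions. By the same test, 519 of the 889 regions ranked down (58.4%) and 1019 of the 18777 regions in all 4 MPP top sets (5.43%) were called for MPPs. Over all 33949 analysed regions it was 2093 (6.17%). The choice of the regions ranked down and of those in all 4 MPP top sets also used their MPP side. Their counts are therefore descriptions too. Every call needs all 9 lists, and leaving out any library ended all calls. Among the 25 were regions inside Rnf141 and Spink13, 13.9 kb outside Nat8f2 and 14.2 kb outside Kremen1, which encodes a receptor of the Wnt inhibitor Dickkopf. Kremen1 ranked 19354 and 16143 in MPP KO and 23743 and 22736 in MPP WT. Only 1 of the 25 lay at a gene end.

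A few members separated the genotypes in LT-HSCs as well. In the top sets of all 3 LT-HSC KO and neither LT-HSC WT library were 11 members (1.3%), against 1.66% of all analysed regions. In both LT-HSC WT and no LT-HSC KO top set were also 11 members (1.3%), against 2.08% of all analysed regions. Neither share is above that of all analysed regions, which include regions with no MPP top-set peak. The LT-HSC KO pattern was in 1.02% of the other regions in 1 to 3 MPP top sets. It was in 0.517% of regions in all 4 MPP top sets and 0.562% of regions ranked down. For the LT-HSC WT pattern these shares were 2.97%, 1.52% and 1.12%. The differences were not tested. The first 11 include regions at Olfm3, at Calcrl, which encodes a receptor of the calcitonin family (17677 and 16625 in MPP KO, 23611 and 25151 in MPP WT), and at Entpd1, which encodes the ectonucleotidase CD39. They also include regions inside Sptb, which encodes beta spectrin of the red cell skeleton, and near Bach2, a repressor of lymphoid and plasma cell genes. Calcrl ranked 18229, 17284 and 22121 in LT-HSC KO and 30434 in LT-HSC WT 2, and had no peak in LT-HSC WT 3. The other 11 include the Cul9 promoter shown above, which ranked 18245 and 19009 in MPP KO and 25494 and 28549 in MPP WT. It had no peak in LT-HSC KO 1 and KO 2 and ranked 24694 in LT-HSC KO 4, against 21815 in LT-HSC WT 2 and 17549 in LT-HSC WT 3. Regions near Spata20, near Max and inside Pmvk, which encodes phosphomevalonate kinase of sterol synthesis, had the same top-set pattern, and all 4 had a peak in both WT and at least 1 KO full list of LT-HSCs. At Cul9 the fold enrichment was higher in LT-HSC KO 4 (10.2) than in LT-HSC WT 2 and 3 (8.18 and 5.35), so the pattern of top sets is not one of signal in every library.

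Gene lists were compared by the share of their analysed regions that were members, beside 2.49% of all analysed regions. Over the 21 lists together, 60 of 1559 regions (3.85%) were members and 41 (2.63%) were ranked down. The counts per list are small, from 1 to 9 members, and have no test. The bar plot of shares by gene list gives all of them.

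**Figure D4:**
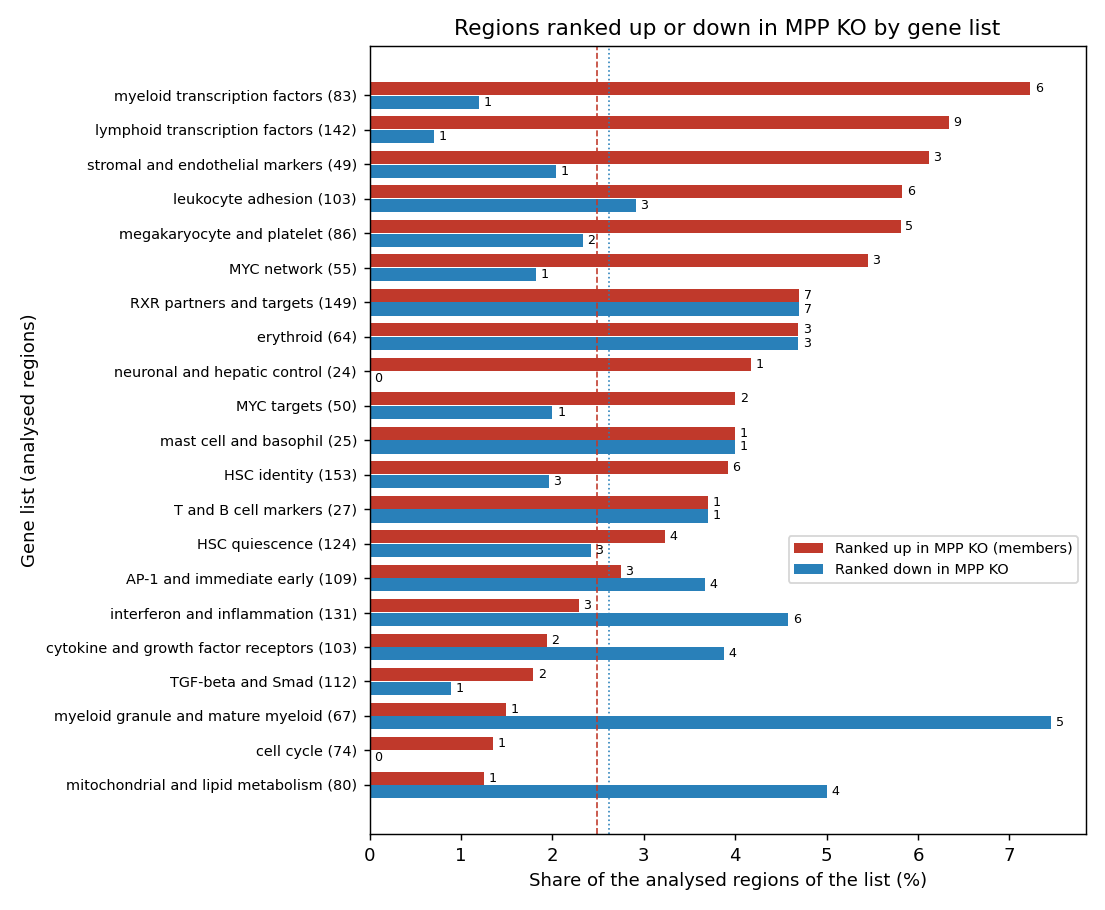
Percent of the analysed regions of each gene list (vertical axis, with the number of regions in brackets) that were members or were ranked down in MPP KO (horizontal axis); the number of regions stands beside each bar, and the dashed and dotted lines mark 2.49% and 2.62% of all analysed regions. The lists of myeloid and lymphoid transcription factors hold the most members per region, and that of myeloid granule genes the most regions ranked down.

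Megakaryocyte and platelet genes had 5 members of 86 regions (5.81%) and 2 ranked down, and all 5 members were in 4 or 5 LT-HSC top sets. The promoter member of Gp1ba (chr11:70638690-70639304) ranked 14080 and 9301 in MPP KO and 27902 and 28504 in MPP WT. Its fold enrichment was 18.7 and 24.0 in MPP KO and 15.6 and 14.6 in MPP WT. In LT-HSCs it ranked 9528, 7803 and 175 in KO, against 1070 and 2400 in WT. The promoter member of Pf4 (chr5:90771840-90772801) ranked 19024 and 18626 in MPP KO and 33896 and 30692 in MPP WT, and ranked 3115, 2784 and 3286 in LT-HSC KO and 6093 and 8881 in LT-HSC WT. Its fold enrichment was 12.4 and 12.7 in MPP KO and 9.48 and 9.59 in MPP WT, and 10.9, 14.2 and 17.8 in LT-HSC KO and 14.1 and 8.41 in LT-HSC WT. By fold enrichment the LT-HSC genotypes overlapped at Pf4, and by rank at Gp1ba. Vwf, which encodes von Willebrand factor, had a member inside the gene at 22379 and 20298 in MPP KO and 30710 and 31976 in MPP WT, with no peak in LT-HSC KO 1 and ranks of 18881 and 5891 in LT-HSC KO 2 and 4, against 8927 and 7760 in LT-HSC WT. Thbs1, which encodes thrombospondin 1, had a member 45.4 kb outside the gene that was in all 5 LT-HSC top sets. The regions ranked down were at Fli1 and Nfe2, both genes of megakaryocyte transcription factors, and neither had a peak in any LT-HSC list.

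HSC identity genes had 6 members of 153 regions (3.92%) and 3 ranked down, and HSC quiescence genes 4 of 124 (3.23%) and 3. Each of these 10 members was in 3 or more LT-HSC top sets. Prdm16, which encodes a zinc finger factor needed for stem cell maintenance, had 2 members inside the gene. One (chr4:154541487-154542170) ranked 15211 and 14971 in MPP KO and 30270 and 33158 in MPP WT, and 4148, 6842 and 844 in LT-HSC KO and 1139 and 2167 in LT-HSC WT. The second (chr4:154531363-154531823) ranked 14141 and 13543 in MPP KO, 26025 and 23489 in MPP WT and 1952 to 7446 over the LT-HSC libraries. Esam, which encodes an adhesion molecule on the stem cell surface, had a member at 19032 and 20869 in MPP KO and 27448 and 28230 in MPP WT, and at 1893 to 7319 in LT-HSCs. Angpt1, a ligand of the Tie2 receptor, had both a member inside the gene (20445 and 18537 in MPP KO, 39548 and 39891 in MPP WT) and a region ranked down (23657 and 23016 in MPP KO, 19414 and 21415 in MPP WT). Both were in all 5 LT-HSC top sets. Hoxa9 had 1 member. Of the quiescence members, that of Cxcr4, the receptor that retains stem cells in the marrow, lay 81.1 kb outside the gene. The others were inside Foxo3, at the nuclear receptor gene Nr4a1 and inside Smad7, an inhibitor of TGF-beta signalling. Cxcr4 ranked 20549 and 16339 in MPP KO and 37364 and 31423 in MPP WT, and 5124 to 12104 over the LT-HSC libraries.

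The list of lymphoid transcription factors had the most members, 9 of 142 regions (6.34%), with 1 ranked down, at Dntt. The list also holds some lymphoid genes that do not encode transcription factors, among them Dntt, Rag1, Il7r and Flt3. Of the 9, 3 were in 3 or more LT-HSC top sets, and LT-HSC WT 3 held 1 of them. Both members of Bach2 and that of Id3, an inhibitor of E proteins, were the 3. Tcf4, which encodes the E protein E2-2, had 2 members inside the gene, 1 of them in no LT-HSC top set (19059 and 19568 in MPP KO, 24758 and 25853 in MPP WT, 47461 in LT-HSC KO 4 and no other LT-HSC peak). The member inside Lef1, a factor of lymphocyte precursors, ranked 20297 and 21092 in MPP KO and 27546 and 51459 in MPP WT. It ranked 11324, 20527 and 27986 in LT-HSC KO and had no peak in either LT-HSC WT list. Mef2c had a member at 18488 and 19290 in MPP KO and 23689 and 28096 in MPP WT, at 7601, 11620 and 30539 in LT-HSC KO, and at 26299 in LT-HSC WT 2 with no peak in WT 3. At both genes the best LT-HSC ranks were in KO 1 and KO 2, but the highest LT-HSC fold enrichment was in KO 4. It was 6.79, 7.92 and 11.2 at Lef1 in LT-HSC KO 1, 2 and 4, and 8.33, 9.48 and 9.7 at Mef2c. Ikzf2, which encodes Helios, and Bcl11a had 1 member each. Cd22, which encodes an inhibitory receptor of B cells, had a member with no LT-HSC peak (19753 and 19115 in MPP KO, 25863 and 24258 in MPP WT).

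Myeloid transcription factor genes had 6 members of 83 regions (7.23%) and 1 ranked down. Granule and mature myeloid genes had 1 member of 67 (1.49%) and 5 ranked down. The members were 2 near Cebpb, which encodes a factor of emergency granulopoiesis, and 1 each for Batf3, Maf, Mitf and Nr4a1. Those of Batf3, Maf and Mitf lay 24.1, 84.7 and 73.2 kb outside the genes. The nearer Cebpb member, 2.35 kb outside the gene, ranked 20744 and 21474 in MPP KO and 37415 and 48313 in MPP WT. It ranked 25504 and 8477 in LT-HSC KO 2 and KO 4, had no peak in LT-HSC KO 1, and ranked 9030 and 12759 in LT-HSC WT. The regions ranked down were at the granule genes Mpo, Lyz1 and Ms4a3, at the receptor gene Csf3r and at Tlr4. None of these 5 was in an LT-HSC top set, and the Mpo region, at the gene end, ranked 31006 and 26857 in MPP KO and 19891 and 22030 in MPP WT. The 1 member of the granule list was near Ly86 and was in all 5 LT-HSC top sets.

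RXR partners and targets had 7 members and 7 regions ranked down of 149 (4.70% each). Abca1, which encodes the cholesterol export transporter and is a target of liver X receptor and RXR pairs, had 2 members and 1 region ranked down. The member inside the gene (chr4:53106802-53107211) ranked 19486 and 20554 in MPP KO and 37253 and 56723 in MPP WT, with a fold enrichment of 17.0 and 16.9 in MPP KO and 12.1 and 7.25 in MPP WT. It had no peak in any LT-HSC list. The other, 36.2 kb outside the gene, was near the end of the MPP top sets (16086 and 21996 in MPP KO, 22875 and 23270 in MPP WT) and in all 5 LT-HSC top sets. The region ranked down, also inside the gene (chr4:53115900-53116261), ranked 52688 and 65588 in MPP KO and 20260 and 18165 in MPP WT. In LT-HSCs it had no peak in KO 1 and KO 2 and ranked 52560 in KO 4, against 12599 and 11825 in LT-HSC WT, so its WT libraries ranked the better in both cell types. Ncoa2, which encodes a coactivator of nuclear receptors, had 1 member, in all 5 LT-HSC top sets. Nr4a1 and Nr4a3, orphan receptors of which Nr4a1 pairs with RXR, had members at their gene ends, and Nr4a1 had a region ranked down 1.09 kb outside the gene. The Nr4a1 member ranked 18548 and 19841 in MPP KO and 33886 and 31310 in MPP WT. Tgm2, a target of retinoic acid, had a member in no LT-HSC top set. Ranked down were also regions inside Abcg1, Mylip and Plin2 (2) and 29.7 kb outside Pparg, genes that are all known targets or partners of RXR pairs. The Mylip region ranked 42685 and 44180 in MPP KO and 18891 and 16031 in MPP WT, and in LT-HSCs had no peak in KO 1 and KO 2 and ranked 19103 in KO 4, against 4601 and 5343 in WT.

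**Figure D5:**
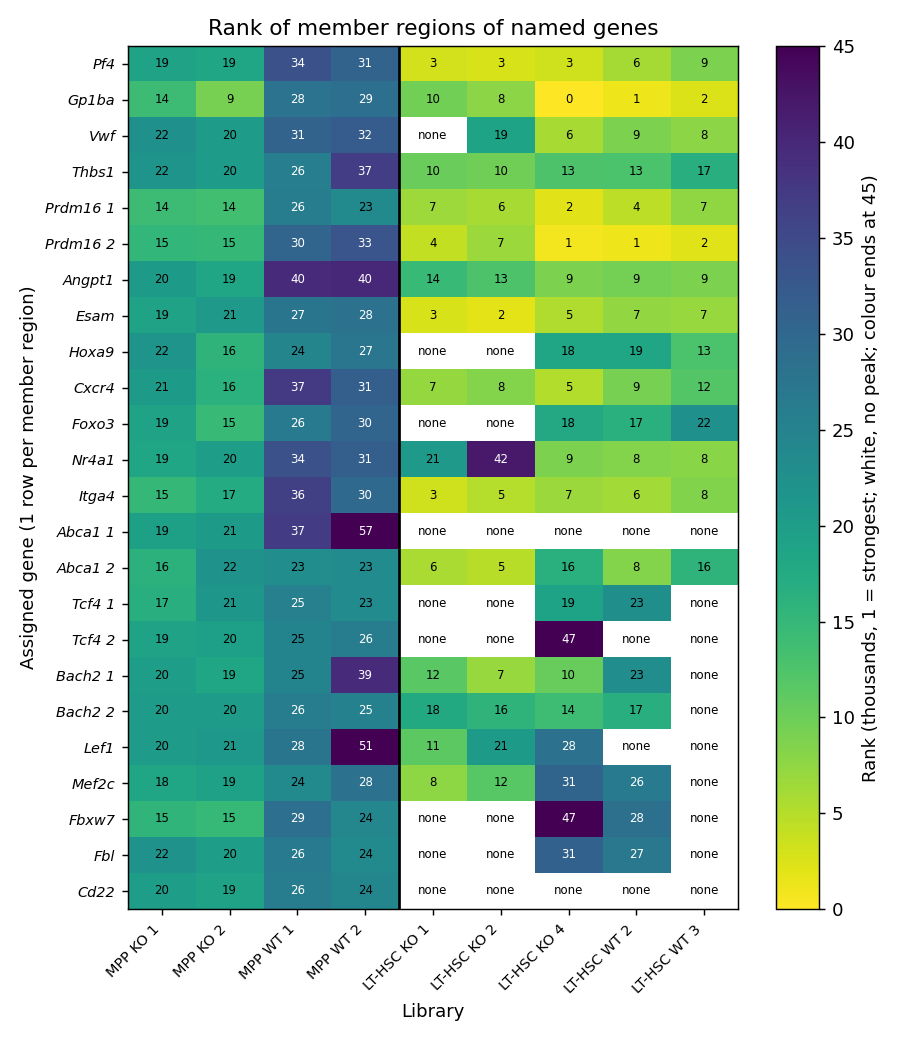
Rank in units of 1000 places (colour and figures in the cells, 1 the strongest, white for no peak) of 24 member regions of named list genes (vertical axis) in the 9 libraries (horizontal axis, MPP to the left of the line and LT-HSC to the right, KO before WT in each). The megakaryocyte and stem cell genes in the upper rows have their best rank in an LT-HSC library, except Foxo3, which has it in MPP KO 2. Foxo3 and Hoxa9 have no peak in LT-HSC KO 1 and KO 2. Members at Cd22, Fbl, Fbxw7, the inside of Abca1 and several lymphoid genes lack many LT-HSC peaks.

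The heat map of ranks shows these genes side by side. Of the remaining lists, leukocyte adhesion had 6 members of 103 regions (5.83%) and 3 ranked down. The members were inside the integrin genes Itga2, Itga4, Itga6 and Itga9, inside Esam and 38.2 kb outside Jam3. The member inside Itga4, the alpha 4 subunit that binds VCAM1, ranked 15075 and 17289 in MPP KO and 36436 and 29589 in MPP WT, and 3296, 5012 and 6740 in LT-HSC KO and 6282 and 8457 in LT-HSC WT. Its fold enrichment was 18.4 and 18.2 in MPP KO and 11.9 and 13.2 in MPP WT, against 8.98 to 18.4 over the LT-HSC libraries. Those ranked down include regions of Itgb2 and Pecam1. The MYC network had 3 members of 55 regions (5.45%). Of these, 1 lay 37.9 kb outside Max, the partner of MYC, and 1 lay 25.5 kb outside Mxi1, which competes with MYC for MAX. The other was inside Fbxw7, which marks MYC for breakdown. Fbxw7 ranked 15470 and 14809 in MPP KO and 28582 and 24215 in MPP WT and was in no LT-HSC top set. MYC targets had 2 of 50, at Fbl, which encodes the nucleolar protein fibrillarin, and Ldha, and cell cycle genes 1 of 74, inside Cdk6. No member or region ranked down was among the 5 analysed regions of Myc, the 3 of Rxra or the 1 of Rxrb. As the deleted segments are not stated in the sources, peaks at Rxra and Rxrb do not check the genotype.

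The counts of the other lists were small. Interferon and inflammation genes had 3 of 131 (2.29%), at Il1r1, Socs1 and Stat3, and 6 ranked down. AP-1 and immediate early genes had 3 of 109 (2.75%) and 4 ranked down, cytokine and growth factor receptors 2 of 103 (1.94%) and 4, TGF-beta and Smad genes 2 of 112 (1.79%) and 1, and mitochondrial and lipid genes 1 of 80 (1.25%) and 4. The 1 mitochondrial member is the Acadvl promoter shown above, with the small gap of 491 places. Erythroid genes had 3 of 64 (4.69%) and as many ranked down, and mast cell genes 1 of 25 (4%) and 1. Lists of other cells also held members. The stromal and endothelial list had 3 of 49 (6.12%), 1 of them Vwf, which megakaryocytes also express, with Runx2 and Bglap, and the neuronal and hepatic control list 1 of 24, at Camk2a. Small lists of unrelated cells therefore reached shares like those of the blood lists.

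Markers of the sorted types were compared with the labels. The 29 analysed regions of LT-HSC markers were in the top set for 48.3% and 51.7% in MPP KO and 37.9% and 34.5% in MPP WT, and for 51.7%, 75.9% and 89.7% in LT-HSC KO and 86.2% and 75.9% in LT-HSC WT. For the 16 regions of MPP markers the shares were 81.2% in both MPP KO libraries and 93.8% and 87.5% in MPP WT, and 37.5% to 50.0% in LT-HSC libraries. Both lists follow the labels except that LT-HSC KO 1 reached only 51.7% of LT-HSC marker regions. In MPPs, LT-HSC marker regions were thus in more KO than WT top sets, and MPP marker regions in fewer. Prdm16 holds 2 members among the 29. The 8 regions of 4 megakaryocyte markers had 75% and 62.5% in MPP KO, against 50.0% and 37.5% in MPP WT, with Pf4 the only member. Regions of T and B cell markers, 2 each, were in the top set of all 4 MPP libraries. The 16 mature myeloid marker regions had 62.5% and 75% in MPP KO and 81.2% in each MPP WT library. In sorted cells, a change in the mix of cells and a change within cells cannot be told apart from these lists, and the part of the mix in the members was not tested.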

How the data were processed

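ATAC-seq peak lists of 9 libraries were used. The authors deposited 1 list per library, with peaks called separately for each. MACS2 2.1.1 and mm10 are named per the submitters' processing notes. For each peak the authors deposited the fold enrichment at its summit, which is a ratio, the −log10 p and −log10 q, and a display score that was not used. Read counts were not used, so depth is unknown, and the sources used here do not give read shifting or duplicate filtering.

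Peaks were ranked within each list, which sets list lengths equal but leaves differences in depth and quality. Regions were assigned to the protein-coding gene (20665 genes, GRCm38.p6) that holds the midpoint, or else to the nearest gene end within 100 kb. Shares have 95% Wilson intervals. Computation used Python 3.11.15, pandas 2.3.3 and scipy 1.17.1. The Fisher test was tested on simulated presence.

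The members, gene lists and comparisons were chosen with earlier results of these data known. Named are genes with most members, the widest rank gaps, up to 2 genes per list, the best-ranked members of each LT-HSC class and at gene ends, and Rxra, Rxrb and Myc. Other genes named belong to the full member sets of the lists, were picked from them after their values were seen, or come from the regions ranked down. Some genes of the lists are counted but not reported by name here. No genome sequence was used, so members away from promoters have no sequence here.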

Additional observations from a re-analysis of the deposited data

Results flagged for a closer look

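In LT-HSCs, 11 members were in the top sets of both WT and no KO library, although both MPP KO and neither MPP WT library held them in theirs. Top-set membership thus differs in opposite directions in the 2 cell types at these regions. This difference was not tested, and it rests on the end of the top set: at Cul9, Spata20 and Pmvk the fold enrichment in LT-HSC KO 4 (10.2, 10.5 and 9.16) was above that in LT-HSC WT 2 (8.18, 8.70 and 7.28) and LT-HSC WT 3 (5.35, 5.09 and 5.04). The regions lie at or near Arhgef17, Cul9, Dpf1, Fchsd2, Gm4131, Itga6, Lrrc8b, Max, Pmvk, Polr1a and Spata20. As 2.08% of all analysed regions had this LT-HSC pattern, against 1.3% of the members, the share of the members is not above the background.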

How the results depend on the processing

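The number of members was 346 with the 10000 strongest peaks as top sets and 846 to 1610 without 1 library in turn, the higher values coming from rules that ask for 1 MPP library less. Holding by 3 or more LT-HSC top sets (60.9%) was 55.4% when ranked by fold enrichment and 65.9% with the 15000 strongest peaks. It was 47.1% to 57.1% without 1 LT-HSC library, where 4 LT-HSC libraries make 3 harder to reach. Without 1 MPP library, where all 5 LT-HSC libraries stay, it was 50.1% to 58.1%. The share at gene ends (13.7%) was 11.3% with 15000 and 18.8% with 10000 peaks, 17.3% within 2 kb, and 13.6% to 16.3% without 1 library. The LT-HSC genotype difference stayed negative in all 15 alternatives (−13.4 to −1.89). Members with no LT-HSC peak numbered 25 in 3 alternatives and 25 to 79 without 1 library. In the alternatives for the rank gap, added after seeing the data, the group with the narrowest gaps had 29.7% to 50.0% and that with the widest 64.7% to 87.2%, closest to each other (48.2% and 64.7%) when ranked by fold enrichment. Calls between cell types by Fisher's exact test were 0 in both directions when all regions were tested and 0 without any 1 library (at unadjusted p under 0.05, 16641 to 23039 for MPPs and 230 to 922 for LT-HSCs). They were 16654 and 230 with an overlap of 100 bp. With the 3 same-numbered MPP and LT-HSC pairs as a replicate block, calls were 0 and 0, also at unadjusted p, as an exact test within 3 pairs cannot go below p = 0.25, and 23997 regions had a peak in the MPP library alone in all 3 pairs and 969 in the LT-HSC library alone. The other results come from no test. Unknown depth limits every rank.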
